A study of Mus musculus with 16 samples.

Results

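The 10 genes described here are general markers of macrophages and monocytes: Adgre1, Csf1r, Mpeg1, Lyz1, Lyz2, Cd14, Itgam, C1qa, C1qb and Marco. They were followed through every array probe whose accession belongs to one of these symbols in RefSeq, which gave 16 probes among the 39429 of the array, for 10 of the 20832 genes that had a named probe. The RNA came from whole homogenates of skin wounds with the surrounding intact skin, from female mice in 4 treatment groups on 2 labelled days, with 2 arrays in each of the 8 groups. The WT group was C57BL/6J. The other groups were db/db mice, which carry a mutated leptin receptor and develop diabetes and obesity on the C57BLKS/J background: db/db (wound left untreated), db/db + vehicle (sesame oil put on the wound every day) and db/db + estrogen (estradiol benzoate in sesame oil put on the wound every day). WT and db/db mice therefore differed in strain as well as in diabetes, which cannot be told apart here. All wounds were full-thickness punch wounds of the back under a dressing. Which labelled day is the earlier one was not settled, because the day in the sample labels and the day that the study's text gives to these arrays appear exchanged. Days are therefore named as labelled, 7 and 14. Nothing in the labels says whether the 2 arrays of a group came from separate mice, so the p-values measure the spread between these arrays.

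Macrophages enter a wound as blood monocytes and also live in the skin. They clear bacteria, dead cells and spent neutrophils, and then release the factors under which granulation tissue and vessels form. The 10 markers stand for different parts of that work. Csf1r is the receptor through which the growth factors CSF1 and IL-34 keep macrophages alive. Adgre1 encodes F4/80, the surface protein by which mouse macrophages are most often recognised. C1qa and C1qb encode chains of C1q, the first component of the classical complement pathway, which tissue macrophages secrete and which binds dying cells. Mpeg1 encodes perforin-2, a pore-forming protein of the phagosome. Lyz1 and Lyz2 encode lysozymes, Lyz2 being the form typical of myeloid cells. Cd14 is the co-receptor that hands lipopolysaccharide to TLR4, Itgam is the αM chain of complement receptor 3 (CD11b), and Marco is a scavenger receptor for bacteria and particles that is induced on activated macrophages. Lyz2, Cd14 and Itgam are also made by neutrophils.

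The values are log2 scaled signals: the log2 of the probe's processed brightness minus the log2 of the array's 75th percentile, so that 0 is the brightness of the probe at that percentile. A difference of 1 between groups is a doubling. A gene with several probes was read through its brightest probe, and levels were not set against each other between genes. A gene was called when limma's moderated test gave an unadjusted p below 0.05 and a fold change above 2, the rule the study names. Benjamini-Hochberg adjusted p-values over all probes tested are given beside it, and "rose" and "fell" are kept for adjusted p below 0.05. All 16 probes were well above background on all 16 arrays, except that 1 spot of the dimmer Mpeg1 probe was an outlier and was left out.

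The 16 arrays had 75th percentiles of 1091 to 2548 brightness units, 70.1% to 79.0% of probes well above background and 0 saturated probes. WT replicate 2 stood below replicate 1 in 10 of the 10 markers on labelled day 7 and in 8 of 10 on labelled day 14. The WT arrays of labelled day 14 had the largest share of probes more than 2-fold apart, 11.4%, although the db/db + estrogen arrays of that day had the lowest correlation (0.979 against 0.982). Over all probes, fewer passed by adjusted p between db/db and WT on labelled day 7 when any 1 of the 4 arrays was left out. A loss of this kind is therefore not particular to 1 array. Among the markers, many rises and falls against WT given below no longer passed without WT replicate 2. Without it, 2 of the 8 markers that passed by adjusted p between db/db and WT on labelled day 7 still passed in limma (Cd14 and C1qa), and the same 2 of 6 on labelled day 14. Without it, 0 of 3 still passed for estrogen and 0 of 4 for vehicle against WT on labelled day 7, and 1 of 6 (C1qa) and 1 of 7 (Marco) on labelled day 14. Without WT replicate 1, 6 of 8, 3 of 3 and 3 of 4 still passed on labelled day 7 for db/db, estrogen and vehicle, and all 6, 6 and 7 on labelled day 14. The labelled days were hybridised on separate slides, so a level on one day against the other cannot be told apart from the slide. In these whole-tissue samples fewer cells of a type and less RNA per cell cannot be told apart. With 2 arrays against 2 an exact permutation test cannot go below p = 0.333, so the tests rest on the spread shared by all 16 arrays, and the number of arrays limits the precision.

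In the GRCm38.p6 build the genes lie as follows: Marco at chr1:120474538-120505024, C1qa at chr4:136895916-136898844 beside C1qb at chr4:136880126-136886200, Itgam at chr7:128062640-128118491, Lyz2 at chr10:117277541-117282272 beside Lyz1 at chr10:117287795-117292868, Adgre1 at chr17:57358581-57483529 and Mpeg1 at chr19:12460770-12465285. RefSeq windows of 300 bases around the start of transcription were searched for 6 of them (Marco, C1qb, Itgam, Lyz1, Lyz2 and Mpeg1). PU.1, the product of Spi1, is the transcription factor on which macrophage identity depends, and the core of its box is GAGGAA. Searched on both strands, that core was in 3 of the 6 windows (Marco, C1qb and Itgam), against 28.3% of all 32851 windows of the same length. The longer form GAGGAAGT, which contains the core, was in 0 of the 6 windows against 3.2% of all. The AP-1 letters TGANTCA were in 0 of 6 against 7.8%, and those of a full estrogen response element, GGTCA and TGACC with any 3 bases between, in 0 of 6 against 0.07%. These matches describe the letters of the windows and show no binding. The 3 windows that hold the core are printed 5′ to 3′ on the gene's strand, with the core or its complement in capitals, because these genes differed in their group patterns. They are Marco at chr1:120504975-120505274 on the minus strand, C1qb at chr4:136886151-136886450 on the minus strand and Itgam at chr7:128062390-128062689 on the plus strand.
Marco: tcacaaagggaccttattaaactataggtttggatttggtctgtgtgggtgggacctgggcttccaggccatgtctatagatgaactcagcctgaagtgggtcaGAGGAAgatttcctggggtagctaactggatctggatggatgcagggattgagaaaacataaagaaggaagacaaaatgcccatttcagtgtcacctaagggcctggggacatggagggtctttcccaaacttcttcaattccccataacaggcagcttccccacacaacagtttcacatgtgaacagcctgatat
C1qb: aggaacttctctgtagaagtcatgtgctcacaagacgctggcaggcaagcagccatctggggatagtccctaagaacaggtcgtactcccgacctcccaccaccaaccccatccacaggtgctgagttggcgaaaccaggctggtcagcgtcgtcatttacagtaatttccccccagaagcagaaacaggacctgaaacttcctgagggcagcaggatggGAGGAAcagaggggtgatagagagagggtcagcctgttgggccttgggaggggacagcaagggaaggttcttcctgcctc
Itgam: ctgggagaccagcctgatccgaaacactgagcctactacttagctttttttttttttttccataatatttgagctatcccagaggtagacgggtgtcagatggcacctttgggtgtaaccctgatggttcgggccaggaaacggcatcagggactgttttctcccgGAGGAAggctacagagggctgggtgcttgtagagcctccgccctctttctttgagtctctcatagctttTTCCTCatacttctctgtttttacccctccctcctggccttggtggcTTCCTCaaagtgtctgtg

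Lyz1 and Lyz2 are neighbouring copies of one gene, and their probes could share signal. Their start windows were alike at 83.6% of 298 aligned bases. They are printed, Lyz1 at chr10:117292819-117293118 and Lyz2 at chr10:117282223-117282522, both on the minus strand, with capitals for bases that differ from or have no partner in the other window.
Lyz1: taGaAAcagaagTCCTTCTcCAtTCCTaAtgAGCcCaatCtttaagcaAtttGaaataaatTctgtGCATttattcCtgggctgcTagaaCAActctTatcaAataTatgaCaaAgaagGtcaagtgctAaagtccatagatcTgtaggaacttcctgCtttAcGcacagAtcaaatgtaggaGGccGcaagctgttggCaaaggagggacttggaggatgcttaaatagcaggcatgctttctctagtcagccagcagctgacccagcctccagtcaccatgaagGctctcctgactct
Lyz2: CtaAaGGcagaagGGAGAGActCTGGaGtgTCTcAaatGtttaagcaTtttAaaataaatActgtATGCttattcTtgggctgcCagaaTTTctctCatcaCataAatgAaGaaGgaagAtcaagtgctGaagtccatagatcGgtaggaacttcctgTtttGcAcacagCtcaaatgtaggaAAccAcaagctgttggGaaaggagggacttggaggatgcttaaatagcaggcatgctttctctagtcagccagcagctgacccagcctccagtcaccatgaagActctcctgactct

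**Figure D1:**
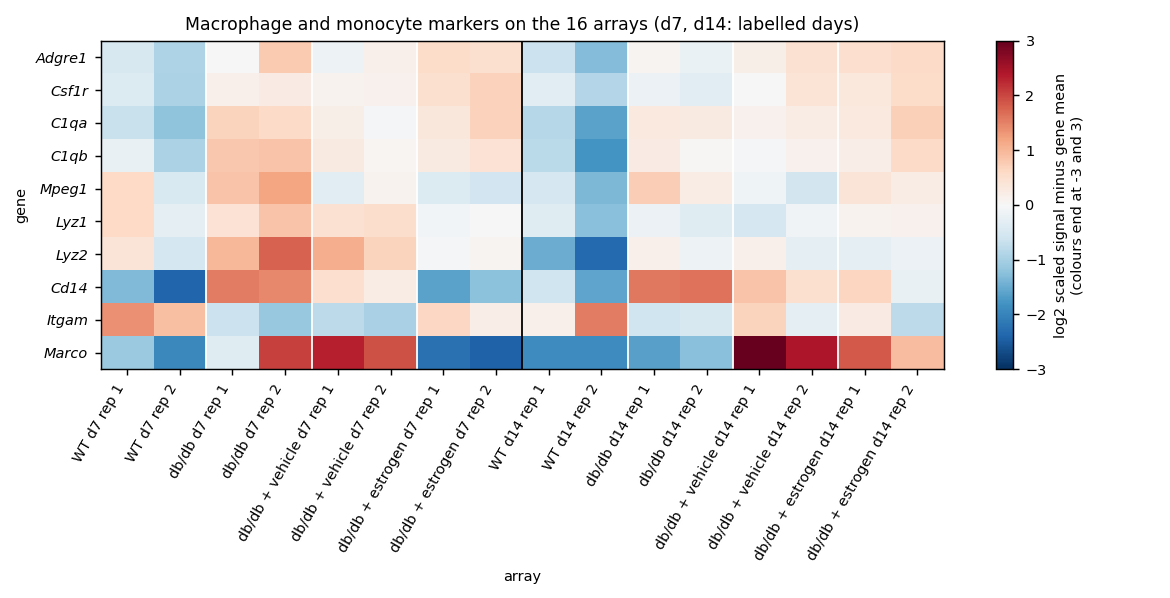
Each row is a marker and each column an array, and the colour is the log2 scaled signal minus the gene's mean over the 16 arrays. WT columns are mostly blue for C1qa, C1qb, Adgre1 and Cd14, and Marco has the strongest colours, from -2.15 to 3.59 before centring.

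The first question was how the untreated diabetic wound differed from the WT wound. Most markers were higher in db/db: Cd14 by 3.34 on the log2 scale on labelled day 7 (10.1-fold) and by 2.71 on labelled day 14 (6.53-fold), the C1q chains by 1.43 to 1.56 on both days, and Lyz2 by 1.45 and 1.91. Itgam, read through its brightest probe, went the other way. On labelled day 7 there were 6 markers called higher and 1 called lower, where 14.2% of all probes tested were called in either direction (5.71% higher, 8.49% lower). For labelled day 14 there were 5 called higher and 1 lower, against 18.1% of all probes (2.38% higher, 15.7% lower). The median difference over the 10 markers was 1.26 on labelled day 7 and 1.16 on labelled day 14, beside medians of -0.05 and -0.12 over all probes tested. By adjusted p, 7 rose and 1 fell on labelled day 7, where 15.4% of all probes passed (8.0% higher, 7.42% lower). Labelled day 14 had 6 that rose and 0 that fell, where 21.5% of all probes passed (4.92% higher).

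Cd14 differed most. On labelled day 7 its level was 1.54 and 0.48 in WT and 4.40 and 4.30 in db/db. It was 2.25 and 1.28 in WT and 4.45 and 4.49 in db/db on labelled day 14. The db/db arrays lay close together and far above both WT arrays on each day. Cd14 rose by 3.34 ± 0.41 (SE) on labelled day 7 (limma, adjusted p = 0.0011) and by 2.71 ± 0.41 on labelled day 14 (adjusted p = 0.00236).

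The complement chains moved together. C1qa was at 2.85 and 2.30 in WT against 4.18 and 4.09 in db/db on labelled day 7, and at 2.67 and 1.91 against 3.80 and 3.78 on labelled day 14. C1qb was at 3.33 and 2.61 against 4.37 and 4.42 on labelled day 7, and at 2.76 and 1.78 against 3.80 and 3.59 on labelled day 14. No db/db array overlapped a WT array of its day. C1qa rose by 1.56 ± 0.27 and 1.50 ± 0.27 (limma, adjusted p = 0.0055 and 0.0049), and C1qb by 1.43 ± 0.31 on both days (adjusted p = 0.0147 and 0.0115). Without WT replicate 2 of labelled day 14, whose signal was low, C1qb was 0.94 higher and was no longer called. Of the 8 other genes of the classical pathway that were listed (C1qc, C1r and C1s proteases, C2, C4b and the inhibitor Serping1 among them), 1 was called higher on each day and 0 passed by adjusted p, and the remaining chain of C1q, encoded by C1qc, was 0.86 ± 0.32 higher on labelled day 7 (adjusted p = 0.095) and 0.73 ± 0.32 on labelled day 14 (adjusted p = 0.13).

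Adgre1 was at 2.21 and 1.77 in WT and at 2.69 and 3.47 in db/db on labelled day 7, and at 2.05 and 1.39 in WT and 2.77 and 2.48 in db/db on labelled day 14. The groups did not overlap, although the db/db arrays of labelled day 7 were apart. Adgre1 rose by 1.09 ± 0.29 (limma, adjusted p = 0.031) and by 0.91 ± 0.29 (adjusted p = 0.048). On labelled day 7 it fell short of the study's rule without WT replicate 2 (0.87) or without db/db replicate 2 (0.70). On labelled day 14 it was 0.58 higher without WT replicate 2 (limma, adjusted p = 0.308). Its second probe gave 1.44 and 1.33 on the same days and was called on both.

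Csf1r, which lies on chromosome 18 with Cd14, differed less. Through its brightest probe it was at 5.0 and 4.46 in WT and 5.56 and 5.65 in db/db on labelled day 7, a rise of 0.88 ± 0.23 (limma, adjusted p = 0.032) that was 0.61 without WT replicate 2 (adjusted p = 0.18). On labelled day 14 the levels of 5.10 and 4.53 in WT and 5.23 and 5.10 in db/db nearly met, and the difference of 0.35 ± 0.23 did not pass (adjusted p = 0.315). Another Csf1r probe to the same accession was higher by 1.22 and 1.03 and was called on both days, and the dimmest gave 0.12 and -0.45 and was called on neither. The Csf1r result on labelled day 14 therefore depended on the probe.

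Lyz2 was at 3.65 and 2.73 in WT and 4.26 and 5.03 in db/db on labelled day 7, and at 1.77 and 0.92 in WT and 3.41 and 3.10 in db/db on labelled day 14. The groups did not overlap on either day. It rose by 1.45 ± 0.38 (limma, adjusted p = 0.029) and by 1.91 ± 0.38 (adjusted p = 0.0076). Without WT replicate 2 of labelled day 7 the difference was 0.99 and was not called. Its neighbour Lyz1 was 0.48 ± 0.33 and 0.53 ± 0.33 higher (adjusted p = 0.348 and 0.27). Whether the lysozyme genes differed from each other was not tested. Mpeg1 was 0.94 ± 0.37 higher on labelled day 7 (adjusted p = 0.11). It was at 4.72 and 3.87 in WT and 5.95 and 5.45 in db/db on labelled day 14 and rose by 1.41 ± 0.37 (limma, adjusted p = 0.025), but without WT replicate 2 it was 0.98 higher and not called. The dimmer Mpeg1 probe was 0.43 and 0.59 higher and was called on neither day.

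Marco was at -0.83 and -1.66 in WT on labelled day 7 and at -0.09 and 2.32 in db/db. The arrays of the db/db group were further apart than those of any other group for this gene. Marco rose by 2.36 ± 0.66 (limma, adjusted p = 0.037), and the difference was 1.16 without db/db replicate 2 and 3.57 without replicate 1. The adjusted p in limma ran from 0.00473 to 0.172 over the arrays left out, passing only without db/db replicate 1. Fitted on the 4 arrays compared alone, it was no longer called (limma, adjusted p = 0.23). Marco on labelled day 14 was at -1.61 and -1.60 in WT and at -1.36 and -0.97 in db/db, 0.44 ± 0.66 higher (adjusted p = 0.66). The difference between the labelled days, -1.92 ± 0.93, did not pass (limma, adjusted p = 0.39).

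Itgam gave opposite directions through probes to the same accession. The brightest probe read 4.09 and 3.64 in WT and 2.09 and 1.59 in db/db on labelled day 7, a fall by 2.03 ± 0.48 (limma, adjusted p = 0.021). The second probe read -2.10 and -2.53 in WT and -0.65 and -0.91 in db/db, a rise of 1.53 ± 0.22 (adjusted p = 0.0024). On labelled day 14 the brightest probe was 1.39 ± 0.48 lower in db/db (adjusted p = 0.066) and the second rose by 0.96 ± 0.22 (adjusted p = 0.0137). A dimmer probe to another Itgam accession was 0.48 higher and 0.49 ± 0.28 lower on those days and passed on neither. No direction for Itgam RNA is therefore given. Itgb2, which encodes the β chain that pairs with αM, rose by 1.29 ± 0.30 and 1.70 ± 0.30 (limma, adjusted p = 0.018 and 0.00447).

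**Figure D2:**
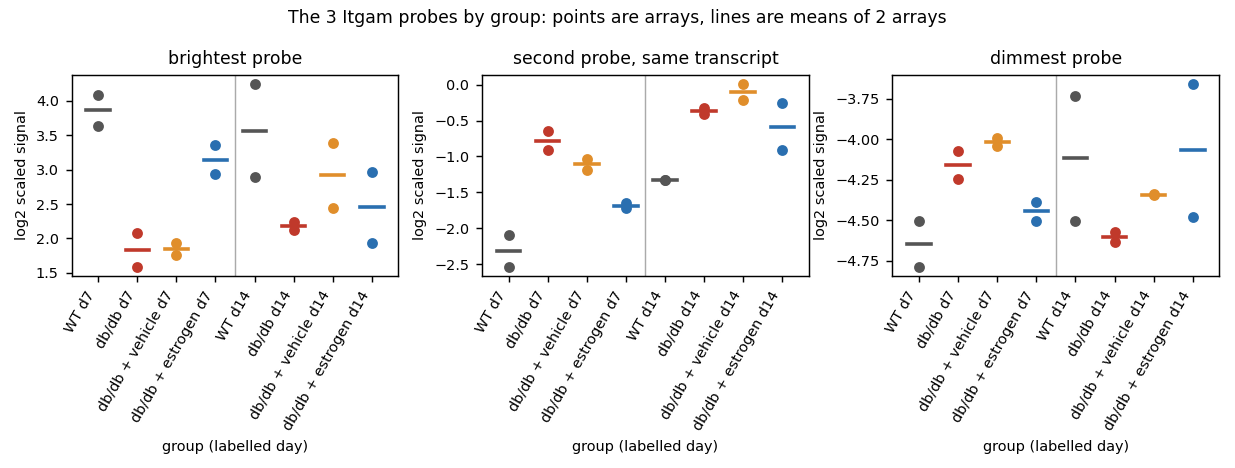
Log2 scaled signal of each Itgam probe by group, with points for arrays and lines for means of 2 arrays. The brightest probe was lower in db/db than in WT on labelled day 7 (1.59 and 2.09 against 3.64 and 4.09), and the second probe was higher.

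Slides could be compared on labelled day 7, where each of 2 slides held 1 array of every group. No slide of labelled day 14 held both db/db and WT arrays, so slide and group could be separated only through the treated groups. With slide as a fixed block, 6 markers were still called on labelled day 14, Adgre1 in place of Mpeg1. By adjusted p in limma the block left C1qa (1.76, adjusted p = 0.035) and Itgam by its brightest probe (-2.38, adjusted p = 0.032). Cd14 was 2.08 higher with an adjusted p of 0.056. Without WT replicate 2 of labelled day 14, 3 markers were called in place of 6.

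Genes around the markers were counted from lists. Spi1 rose by 1.95 ± 0.32 and 1.73 ± 0.32 (limma, adjusted p = 0.0047 and 0.0061). Of the 14 growth factors and regulators of macrophages, 4 rose and 2 fell on labelled day 7, among them a rise of Csf2rb, the shared β receptor chain for GM-CSF, by 1.52 and a fall of the chemokine receptors Cx3cr1 by 2.55 and Ccr2 by 1.27. Of these, 1 rose and 1 fell on labelled day 14, Ccr2 by 1.65. Of the 12 genes of integrins, complement receptors and their adaptors, 9 rose on labelled day 7 and 6 on labelled day 14, led by the Fc receptor Fcgr3 (2.10) and the C5a receptor C5ar1 (2.06) on labelled day 7 and by the adaptor Tyrobp (1.76) on labelled day 14. Of the 9 listed scavenger receptors besides Marco, 6 rose on labelled day 7 and 4 on labelled day 14, with Olr1 at 2.98 and 2.31, Msr1 at 1.87 and 1.08 and Cd36 at 1.46 and 1.42. Of the 9 genes of the lipopolysaccharide response, 3 rose on labelled day 7 (Tlr2 by 1.70, Irak3 by 1.26 and Tlr4 by 0.97) and 2 of the 8 tested on labelled day 14 (Tlr2 by 1.33 and Tlr4 by 0.66). Of the 10 measured genes of the lysosome and oxidative killing, 4 rose on labelled day 7 and 2 on labelled day 14, with the oxidase subunit Ncf4 at 2.81 and 1.65.

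Markers of other cells moved with this comparison. Of the 12 neutrophil genes with a probe, 7 rose on labelled day 7, with a median difference of 3.38, and 3 rose and 1 fell on labelled day 14. The summed linear signal of those genes was 363.9 to 398.6 in WT and 469.9 to 538.5 in db/db on labelled day 7, and 361.8 to 499.0 and 283.6 to 335.5 on labelled day 14. S100a8 and S100a9 carried most of these sums. Without them the sum was 94.3 and 67.6 in WT and 135.2 and 123.0 in db/db on labelled day 7. On labelled day 14 it was 40.9 and 67.9 in WT and 36.3 and 61.4 in db/db, which overlapped. Of the 4 general leukocyte genes, 3 rose on labelled day 7, Ptprc (CD45) by 1.18 ± 0.20, and 1 on labelled day 14, Ptprc by 0.78 ± 0.21. Of the 12 neutrophil genes, 10 to 11 were well above background on the WT arrays of labelled day 7 and 12 on the other WT and db/db arrays. The summed signal of 5 monocyte genes on labelled day 7 was 10.5 to 19.9 in WT and 48.4 to 48.7 in db/db. On labelled day 14 it was 20.5 to 25.8 and 45.4 to 48.1. Ccr2, also on that list, fell on labelled day 7. For 6 keratinocyte genes the sum was 394.1 to 397.6 in WT and 191.6 to 296.4 in db/db on labelled day 7. It was 337.9 to 452.3 and 179.3 to 343.7 on labelled day 14, ranges that overlapped. The part of these cells in the marker differences was not tested. Of the 7 defining macrophage genes with a probe, 2 rose on labelled day 7 (Adgre1 and Csf1r) and 1 on labelled day 14 (Adgre1). Both belong to the 10 markers, so no other gene of that list rose on either day. On labelled day 7 the apoptotic cell receptor Mertk (1.13, limma adjusted p = 0.057) and the mannose receptor Mrc1 (1.62, adjusted p = 0.0576) missed the threshold. Fcgr1 was at -0.10. The summed signal of the 7 genes was 142.9 to 232.9 in WT and 231.5 to 280.8 in db/db on labelled day 7, which overlapped. On labelled day 14 it was 127.8 to 173.9 and 181.1 to 204.4, which did not. Without Lgals3 (galectin-3), the sum was 79.9 and 45.6 in WT and 114.3 and 121.9 in db/db on labelled day 7. On labelled day 14 the sum without it was 75.4 and 46.9 in WT and 90.7 and 80.6 in db/db. Neither day overlapped without Lgals3.

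**Figure D3:**
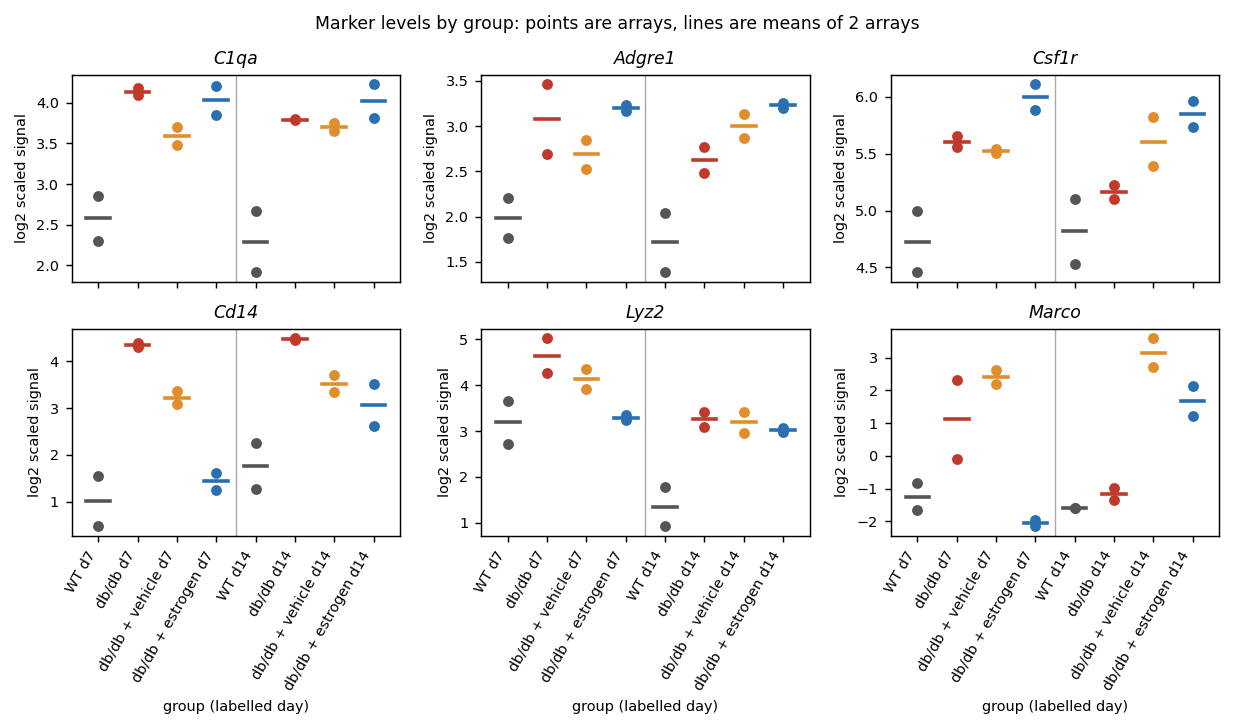
Log2 scaled signal of 6 markers by group, with points for arrays and lines for means of 2 arrays, labelled day 7 left and labelled day 14 right of the grey line. C1qa is lowest in the WT groups on both days, and Marco on labelled day 7 is lowest in db/db + estrogen (-1.96 and -2.15) and highest in db/db + vehicle (2.60 and 2.18).

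The next question was what topical estrogen changed in the diabetic wound. On labelled day 7, Cd14, Marco and Mpeg1 fell while Adgre1, Csf1r and the C1q chains stayed within 0.48 of untreated db/db and did not pass the test. Of the latter, C1qb differed most, at 3.83 and 3.99 with estrogen and 4.37 and 4.42 in db/db, arrays that did not overlap. In all, 4 markers were called lower and 1 higher, against 10.0% of all probes tested (4.74% lower, 5.27% higher), with a median of -0.58 beside 0.04 over all probes. By adjusted p, 3 fell, where 6.82% of all probes passed (3.67% lower). Without db/db replicate 2, 3 were called.

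Cd14 on labelled day 7 was at 1.26 and 1.61 in db/db + estrogen, against 4.40 and 4.30 in db/db and 3.37 and 3.08 in db/db + vehicle. Both estrogen arrays lay below every other db/db array and overlapped the WT arrays at 1.54 and 0.48. Cd14 fell by 2.91 ± 0.41 against db/db (limma, adjusted p = 0.0035) and by 1.79 ± 0.41 against vehicle (adjusted p = 0.042), and was 0.43 ± 0.41 higher than in WT (95% interval -0.49 to 1.34, adjusted p = 0.62). Within the slides, the difference from db/db was -3.14 and -2.68.

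Marco on labelled day 7 was at -1.96 and -2.15 in db/db + estrogen, at -0.09 and 2.32 in db/db and at 2.60 and 2.18 in db/db + vehicle. The estrogen arrays were the lowest of all 16 for this gene and the vehicle arrays were among the highest. Marco fell by 3.17 ± 0.66 against db/db (limma, adjusted p = 0.020) and by 4.45 ± 0.66, or 21.9-fold, against vehicle (adjusted p = 0.00864). The first difference ran from -4.38 without db/db replicate 1 to -1.97 without db/db replicate 2, and its adjusted p from 0.00273 to 0.115 (limma) over the 4 arrays left out. The second lay between -4.66 and -4.24 whichever of the 4 arrays was left out, with adjusted p from 0.0291 to 0.063 (limma).

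Mpeg1 was at 4.81 and 4.66 in db/db + estrogen and at 6.07 and 6.40 in db/db, a fall by 1.50 ± 0.37 (limma, adjusted p = 0.0405). Vehicle, at 4.92 and 5.33, lay between, and estrogen differed from it by -0.39 ± 0.37 (adjusted p = 0.581). The dimmer Mpeg1 probe, with 1 estrogen array after its outlier spot was left out, was 1.77 lower than in db/db and was called (adjusted p = 0.0849). Lyz2 was at 3.23 and 3.35 with estrogen and 4.26 and 5.03 in db/db. It was called lower by 1.35 ± 0.38 with an adjusted p of 0.061. Without db/db replicate 2 it was 0.97 lower and not called.

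For Csf1r, Adgre1 and C1qa the differences from db/db did not pass. Csf1r with estrogen, at 5.89 and 6.11, had the highest mean of the 8 groups, overlapping that of estrogen on labelled day 14, and was 0.39 ± 0.23 above db/db (95% interval -0.13 to 0.92, limma adjusted p = 0.39) and 0.47 ± 0.23 above vehicle (adjusted p = 0.27). Adgre1 at 3.23 and 3.16 was 0.12 ± 0.29 above db/db (interval -0.52 to 0.76), and C1qa at 3.85 and 4.21 was -0.11 ± 0.27 from it (interval -0.70 to 0.49). Against WT these 3 genes rose on labelled day 7, by 1.27, 1.21 and 1.45 (limma, adjusted p = 0.013, 0.0393 and 0.0129), the only markers called in that comparison, where 8.28% of all probes were called (3.69% higher) and 5.29% passed by adjusted p (3.03% higher). Without WT replicate 2, Adgre1 was 0.99 higher and was not called. Itgam was again opposite between probes: the brightest was called higher with estrogen than in db/db by 1.31 ± 0.48 (adjusted p = 0.15) and the second fell by 0.90 ± 0.22 (adjusted p = 0.037).

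Neutrophil genes moved with these results. Against db/db, 11 of 12 fell on labelled day 7 with a median of -5.87, among them the granule genes Ltf (-8.82) and Camp (-7.08) and the calprotectin gene S100a8 (-5.49). Their summed signal was 51.1 to 66.1 with estrogen, against 469.9 to 538.5 in db/db, 467.3 to 498.1 in db/db + vehicle and 363.9 to 398.6 in WT. S100a8 and S100a9 carried 71.2% to 85.7% of that sum on the arrays of the other 3 groups, and 11.6% and 37.4% with estrogen. Without them the sum was 45.2 and 41.4 with estrogen, 135.2 and 123.0 in db/db, 76.2 and 66.6 in db/db + vehicle and 94.3 and 67.6 in WT. The granule genes had another pattern, high in untreated db/db alone on that day. Ltf was at 3.25 and 1.76 in db/db, at -5.51 and -3.28 in db/db + vehicle, at -5.84 and -6.79 with estrogen and at -6.19 and -5.06 in WT. Camp was at 4.11 and 2.66 in db/db, at -4.02 and -1.37 in db/db + vehicle, at -3.40 and -3.98 with estrogen and at -3.81 and -3.57 in WT. Against vehicle, 5 of 12 fell, S100a8 by 5.66 ± 0.45 (limma, adjusted p = 0.00091). The general leukocyte genes Cd52 and Ptprc fell by 1.38 and 0.81 against db/db. The summed signal of the 7 macrophage genes was 242.8 to 260.3 with estrogen and 231.5 to 280.8 in db/db, ranges that overlapped. Lgals3, which encodes galectin-3, carried 44.0% to 56.6% of that sum on these arrays, and without it the sum was 121.0 and 136.0 with estrogen and 114.3 and 121.9 in db/db. Mertk, another gene of that list, was at -0.05 and 0.31 with estrogen and at 1.07 and 1.41 in db/db. The part of neutrophils in the lower Cd14, Lyz2 and Marco signal was not tested.

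Of the genes around the markers, Tlr2, the partner receptor of CD14 for bacterial lipoproteins, fell by 1.82 ± 0.31 against db/db (limma, adjusted p = 0.0086), as the only one of 9 in its list. The scavenger receptor Msr1 fell by 1.03 and Cd36 rose by 1.11, 2 of 9. In the lysosome and killing list 3 of 10 fell, among them Ncf4 by 1.69 and the metal transporter Slc11a1 by 0.99. In the integrin list 2 of 12 fell, Itgal by 1.44 and Fermt3 by 0.74, and among the regulators 2 of 14 fell, among them Csf2rb by 1.60. Against vehicle, Csf1, the ligand of Csf1r, rose by 1.21 ± 0.21 (limma, adjusted p = 0.017), and it was 0.45 ± 0.21 above db/db (adjusted p = 0.27).

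Directly against vehicle on labelled day 7, 3 markers were called (Marco and Cd14 lower, Itgam by its brightest probe higher), against 9.09% of all probes (4.37% lower, 4.72% higher). By adjusted p, 2 fell, Marco and Cd14, where 4.46% of all probes passed (2.03% lower).

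**Figure D4:**
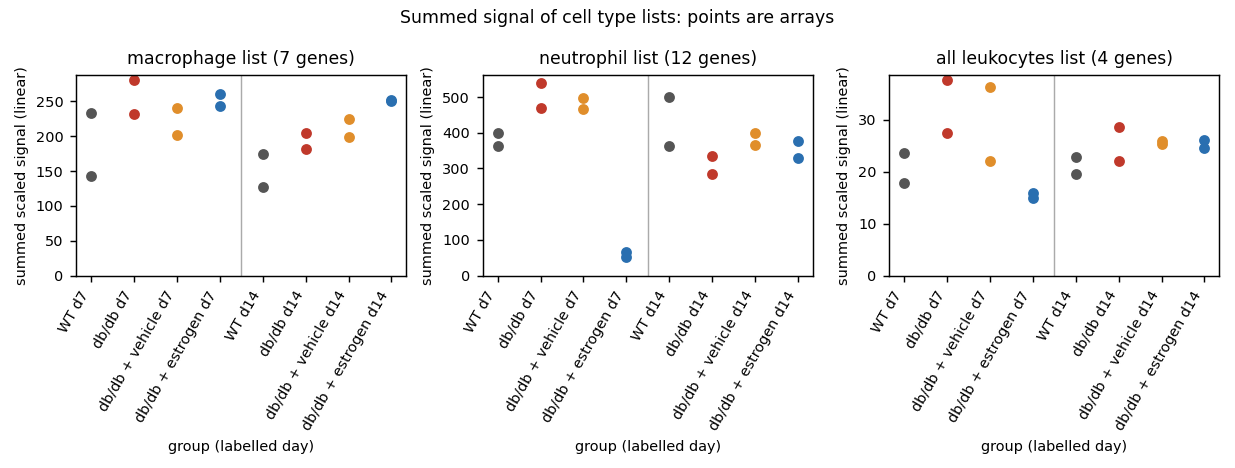
Summed linear scaled signal of 7 macrophage, 12 neutrophil and 4 general leukocyte genes on each array, by group. The neutrophil sum in db/db + estrogen on labelled day 7 is 51.1 to 66.1 while every other array is at 283.6 or above. On those other arrays the sum is carried mostly by S100a8 and S100a9, and the granule genes Ltf and Camp do not follow it. The macrophage sum with estrogen on labelled day 7 (242.8 to 260.3) lies within that of untreated db/db (231.5 to 280.8). Without Lgals3 (not drawn) it was 121.0 and 136.0 with estrogen and 114.3 and 121.9 in db/db.

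With estrogen on labelled day 14, Marco was higher and Cd14 lower than in untreated db/db. These were the only markers called, 1 in each direction, against 4.0% of all probes (2.62% higher, 1.38% lower), and 0 passed by adjusted p (limma), where 0.156% of all probes did. Marco was at 2.12 and 1.20 with estrogen and -1.36 and -0.97 in db/db, 2.82 ± 0.65 higher (adjusted p = 0.16). The groups did not overlap. Cd14 was at 3.51 and 2.62 with estrogen and 4.45 and 4.49 in db/db, 1.41 ± 0.41 lower (adjusted p = 0.25), and was no longer called without estrogen replicate 2, at -0.96. Csf1r was 0.68 ± 0.23 and Adgre1 0.60 ± 0.29 above db/db (adjusted p = 0.34 and 0.54).

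The estrogen difference of Marco from untreated db/db changed sign between the labelled days, from -3.17 to 2.82. The difference between the days, 6.0 ± 0.93, passed in limma (adjusted p = 0.047), the only one of the 10 markers to do so in this comparison, where 0.154% of all probes did. It was between 4.79 and 7.20 whichever of the 8 arrays was left out, and kept an adjusted p below 0.05 in 3 of those 8 fits. With replicate number as a block it was 6.0 with an adjusted p of 0.13. Cd14 gave 1.51 ± 0.58 (adjusted p = 0.38) and Mpeg1 1.33 ± 0.53 (adjusted p = 0.391). Against vehicle, which shares the oil, Marco with estrogen was lower on both days (-4.45 and -1.49, the second not passing by adjusted p). That difference therefore kept its sign. Vehicle without estrogen was 1.28 (not called) and 4.31 above untreated db/db. No marker passed in the day differences of the other comparisons (limma), where 0.994% of all probes passed for db/db against WT, 0.00328% for vehicle against db/db, 0.104% for estrogen against vehicle, 0.188% for estrogen against WT and 1.93% for vehicle against WT.

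Vehicle alone was compared with untreated db/db, since oil was also put on the estrogen wounds. On labelled day 7, Cd14 was 1.12 ± 0.41 and Mpeg1 1.11 ± 0.37 lower than in db/db, both called (adjusted p = 0.25 and 0.21), against 4.94% of all probes (2.37% lower), and 0 passed by adjusted p (limma), where 0.299% of all probes did. Leaving out any 1 of the 4 arrays left 1 called marker, which without db/db replicate 2 was a higher one. On labelled day 14, Marco was at 3.59 and 2.70 with vehicle and rose by 4.31 ± 0.66, or 19.8-fold, over db/db (limma, adjusted p = 0.033), the only marker called, against 7.67% of all probes (5.41% higher), and the only one to pass by adjusted p, where 0.424% did (0.275% higher). Both vehicle arrays lay above every other array of that day. On slide 3, which held arrays of both groups, the difference was 4.76. With slide as a fixed block 2 markers were called higher there, where calls over all probes went from 2229 to 3198, and with slide as a random block 1 was higher and 1 lower, with 2021 calls over all probes. Estrogen against vehicle on labelled day 14 gave 1 called marker, Marco, lower by 1.49 ± 0.65 (adjusted p = 0.77), against 1.04% of all probes (0.514% lower), and 0 markers passed by adjusted p (limma), as did 0% of all probes. The call was lost without vehicle replicate 1 (-1.04), without estrogen replicate 2 (-1.03) and with slide as a random block. Without db/db replicate 2 of labelled day 14, 2 markers were called between vehicle and db/db, with 2171 calls over all probes.

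**Figure D5:**
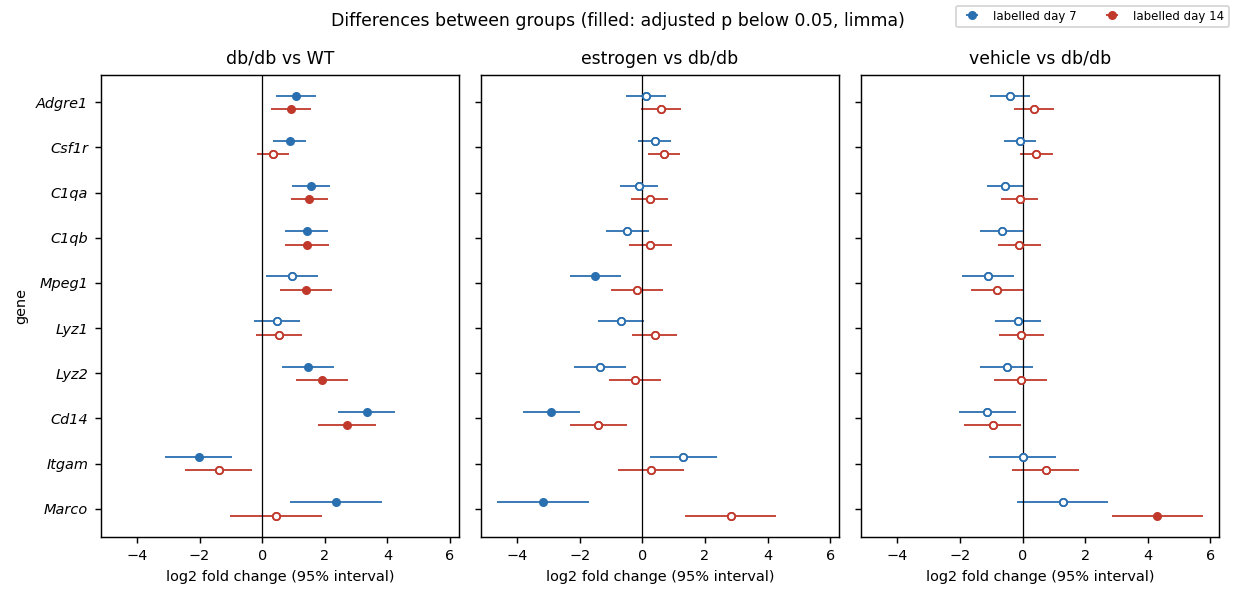
Log2 fold change with its 95% interval for each marker, through its brightest probe, for db/db against WT and for estrogen and vehicle against db/db. Filled points passed by adjusted p: the differences from WT are mostly to the right, those with estrogen on labelled day 7 are to the left for Cd14, Marco and Mpeg1, and Marco with vehicle on labelled day 14 is at 4.31.

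The treated groups were also set against WT. With estrogen on labelled day 14, 8 markers were called higher and 1 lower (Itgam by its brightest probe), against 13.4% of all probes (2.53% higher, 10.9% lower), and 6 rose, where 13.6% passed by adjusted p (4.0% higher): Marco by 3.27 (9.62-fold), C1qa by 1.73, Lyz2 by 1.68, C1qb by 1.67, Adgre1 by 1.51 and Csf1r by 1.03. Without WT replicate 2, 5 were called. With vehicle on labelled day 7, 3 markers were called higher (Marco by 3.64, Cd14 by 2.21 and C1qa by 1.01) and Itgam lower by its brightest probe, against 10.4% of all probes (3.93% higher, 6.45% lower). By adjusted p the same share of probes passed (4.75% higher, 5.63% lower). These 3 rose, and Itgam fell by its brightest probe, while its second probe was 1.21 higher. Without WT replicate 1, 7 markers were called, and calls over all probes went from 3083 to 3837. C1qa was 0.74 higher without WT replicate 2 and was not called. With vehicle on labelled day 14, 6 were called higher, against 13.5% of all probes (2.56% higher), and 7 rose, where 15.2% passed by adjusted p (4.71% higher), led by Marco at 4.75 (26.9-fold) and Lyz2 at 1.85. Comparisons that share the WT or db/db arrays are not independent of each other.

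Over the 8 groups, the markers differed in how far they ranged. The range of group means was 5.20 on the log2 scale for Marco (36.8-fold) and 3.46 for Cd14, and 1.27 for Csf1r. In order of mean level, C1qa was lowest in WT of labelled day 14 (2.29 ± 0.53, SD, n = 2) and WT of labelled day 7 (2.58 ± 0.39), which overlapped, and the other 6 groups lay between 3.59 and 4.14. Csf1r ran from WT of labelled day 7 (4.73 ± 0.38) to db/db + estrogen of labelled day 7 (6.0 ± 0.16). Cd14 was lowest in WT of labelled day 7 (1.01 ± 0.75) and in db/db + estrogen of labelled day 7 (1.44 ± 0.25), neighbours that overlapped, and highest in untreated db/db of both days (4.35 ± 0.07 and 4.47 ± 0.03). Marco was lowest in db/db + estrogen of labelled day 7 (-2.06 ± 0.14) and highest in db/db + vehicle of labelled day 14 (3.15 ± 0.63).

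Likeness was measured as the root mean square difference between the profiles of 8 group means, each centred on its own mean, over 15355 genes. It is a description over 8 groups, in which unlike genes can lie close by their small range. Among the markers, Adgre1 was closest to Csf1r (0.18) and to C1qa (0.20), and C1qa and C1qb lay 0.18 apart. Marco, with the widest range, was 1.71 from Adgre1. The closest genes of all were Tlr7, an endosomal RNA sensor, for Adgre1 (0.11), Akr1c13 for Csf1r (0.072), the lysosomal transporter Slc15a3 for Mpeg1 (0.12), Cd84, a leukocyte surface receptor, for C1qb (0.089), Plin2, a coat protein of lipid droplets, for C1qa (0.11), Tyrobp for Lyz2 (0.37), AI413582 for Lyz1 (0.18) and Pura for Itgam through its brightest probe (0.15). Cd14 was closest to the granule proteoglycan Srgn (0.32), followed by the cytokine Osm (0.45) and the lectin receptor Clec4d (0.46). The closest gene to Marco, Gm21944, was 0.77 away, where the profile of Marco itself had an SD of 2.02.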

How the data were processed

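Single-colour (Cy3) Agilent arrays of whole-wound RNA were read by the submitters with Agilent Feature Extraction 11.0.1.1, per the labels, and the deposited scanner files hold a processed intensity and a well-above-background mark for each spot. The authors also deposited a matrix of linear ratio values, each probe's intensity relative to the array's 75th percentile, which equalled the scanner values within 0.5% for at least 99.81% of 34643 probes. Here control and outlier spots were left out, spots of a probe were averaged, and log2 intensity was centred on the array's 75th percentile. Accessions were named through RefSeq (GRCm38.p6), which gave a symbol to 69.6% of probes. Group contrasts were fitted with limma 3.58.1 in R 4.3.3 on all 16 arrays with 1 mean per group, two-sided, over probes that the well-above-background mark covered in both arrays of one or both groups compared, with Benjamini-Hochberg adjustment. A gene was read through its brightest probe. Every marker and all its probes were named. Of other lists, up to 3 genes per comparison with the largest changes passing by adjusted p were named, among genes well above background on all 16 arrays. Larger changes of dimmer genes were therefore passed over. Defining cell markers were also named where they stand beside a result and, for likeness, the closest genes. Members and lists were chosen with earlier results of these data known. The procedure was tested on simulated data. Alternatives were normexp background correction, quantile normalization, the deposited matrix, other filters, slide and replicate blocks, fits on 4 arrays, and leaving out each array. Chosen after seeing the data were reading Itgam through its second probe, averaging probes and the adjusted threshold for single markers, leaving out arrays for differences between days and for adjusted calls against WT, and list sums without their brightest genes. Some genes of the lists are not reported here by name.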

Additional observations from a re-analysis of the deposited data

Results flagged for a closer look

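The estrogen difference of Marco from untreated db/db differed between the labelled days by 6.0 ± 0.93 on the log2 scale (limma contrast of contrasts, adjusted p = 0.047), from -3.17 on labelled day 7 to 2.82 on labelled day 14. The 2 estrogen arrays of labelled day 7 read -1.96 and -2.15 and those of labelled day 14 read 2.12 and 1.20. The untreated db/db arrays read -0.09 and 2.32 on labelled day 7 and -1.36 and -0.97 on labelled day 14, so both groups moved. The vehicle arrays read 2.60 and 2.18 on labelled day 7 and 3.59 and 2.70 on labelled day 14. Against vehicle, Marco with estrogen was lower on both days (-4.45 and -1.49), without a change of sign. The labelled days were on separate slides, and the part of the slides in each day's level cannot be told apart from the day, although each difference was taken within a day.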

How the results depend on the processing

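Of 53 results on single markers, each compared under its alternatives, 705 of 796 values kept their direction and their side of the threshold, 75 fell below it, 10 passed it and 6 reversed. All 6 reversals came from reading Itgam through its second probe: 1.53 for db/db against WT on labelled day 7 and 0.96 on labelled day 14, -0.90 for estrogen against db/db and -0.57 for estrogen against vehicle on labelled day 7, 1.21 for vehicle against WT on labelled day 7 and 0.75 for estrogen against WT on labelled day 14. The cause was not tested. The other filters and the deposited matrix each kept 52 of 52 results. These alternatives could hardly differ, because the markers were well above background on all arrays and the matrix held nearly the same intensities.

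On labelled day 7, averaging the probes of a gene gave 3 called markers for estrogen against db/db in place of 5 and 1 for vehicle against db/db in place of 2. Calling by adjusted p alone gave 3 and 0, and 0 on labelled day 14 for estrogen against db/db in place of 2 and against vehicle in place of 1. Vehicle against db/db on labelled day 14 gave 2 in place of 1 with quantile normalization, slide as a fixed block or slide as a random block. Estrogen against vehicle on that day gave 0 in place of 1 with slide as a random block or the replicate block. The replicate block also took the difference between days for estrogen against db/db from 1 marker to 0. On labelled day 7 replicate 1 of every group was on slide 1 and replicate 2 on slide 2. Replicate number and slide were therefore the same block on that day. Correlations of replicate differences between groups had both signs, from -0.454 to 0.389, and the replicate block moved no other count by over 1.5 times.

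Leaving out 1 array in turn gave, on labelled day 7, 5 to 9 called markers for db/db against WT, 3 to 5 for estrogen against db/db, 1 to 1 for vehicle against db/db, 2 to 3 for estrogen against vehicle, 3 to 4 for estrogen against WT and 3 to 7 for vehicle against WT. On labelled day 14 the ranges were 3 to 7, 1 to 2, 1 to 2, 0 to 1, 5 to 10 and 4 to 9 in that order. For the differences between days the range was 0 to 1 for db/db against WT, estrogen against db/db and vehicle against db/db. With 1 array left in a group it is assumed to vary like the others. Calls over all probes moved in these fits too, on labelled day 7 for db/db against WT and for estrogen and vehicle against db/db. They did not always move with the markers: without db/db replicate 2, more probes but fewer markers were called for estrogen and for vehicle against db/db. Whether a change in the number of called markers is particular to the markers was not tested.

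Quantile normalization shifted the median of all probes for db/db against WT by 0.19 on labelled day 14, and moved the share of calls that were higher from 40.2% to 52.0% on labelled day 7 and from 13.2% to 32.4% on labelled day 14. The number of arrays limits every value, and signal over background limits none of the brightest probes.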
